A study of Mus musculus with 11 samples.

Results

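Nuclear receptors are transcription factors, many of which are switched by a small lipophilic ligand. The 43 described here are every measured mouse gene whose symbol has the systematic nuclear receptor form, from Nr0b to Nr6a (23 genes), plus 20 measured genes of a list of 22 receptors with older names such as Ppara, Rara and Esr1. Ppard and Esrra of that list were not analysed here. The 43 stand among 19505 named genes on the array. Neither level nor genotype difference enters the naming rule, but the set was chosen with earlier results of these data known. RNA came from liver sinusoidal endothelial cells (LSEC), the fenestrated cells that line the hepatic capillaries, and was hybridised to 11 Mouse Clariom S arrays. The autophagy-deficient mice, called knockout below, carried Atg5lox/lox with VE-cadherin-Cre (5 arrays), and the wild type mice carried Atg5lox/lox without Cre (6 arrays). All mice started a high fat diet at 8 weeks of age and stayed on it for 2 weeks, so every value below is from high fat feeding. The VE-cadherin promoter drives Cre in endothelial cells, and Atg5 encodes a protein of autophagosome formation.

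Most nuclear receptors bind short DNA elements built from hexamer half-sites, as monomers, homodimers or heterodimers with a retinoid X receptor (RXR), and recruit coactivators or corepressors. In the liver the hepatocyte is known for the bile acid, xenobiotic and fatty acid sensors, whereas the Kupffer cell, the resident macrophage, uses the liver X receptor alpha encoded by Nr1h3. Endothelial cells are known for the orphan receptor COUP-TFII (Nr2f2), which takes part in venous identity, and for the NR4A receptors, which are induced within a short time by stress and growth signals.

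Values are log2 signals of 1 transcript cluster per gene, where RMA had set the arrays to a common distribution, and array medians ran from 6.61 to 6.745. Probes of different genes bind with different strength, so signals are compared between arrays and not between genes. Precision is limited by having 5 and 6 arrays. Signal of the floxed gene, Atg5, was 7.48, 7.57, 7.54, 7.90 and 7.53 in knockout arrays 1 to 5, against 7.38 to 7.59 (median 7.535) in wild type arrays (difference 0.10, SE 0.10, exact permutation p = 0.245). Where its probes lie relative to the floxed part is not known here, so this does not check the labels. LSEC markers averaged 11.76 ± 0.10 in knockout and 11.74 ± 0.09 in wild type arrays (SD, n = 5 and 6), and all 16 measured markers were above background on all 11 arrays. The study called a gene changed when its fold reached 1.5 and its uncorrected p did not exceed 0.05. Kupffer cell and macrophage markers averaged 8.73 ± 0.89 in knockout and 7.55 ± 0.48 in wild type arrays (SD, n = 5 and 6), and 14 of 16 were higher by that rule. Hepatocyte markers averaged 8.57 ± 0.61 in knockout and 9.43 ± 0.54 in wild type arrays, and 14 of 22 were lower by it. A group of 4 arrays stood apart in the platform's intron control probes, namely knockout 3 and 4 and wild type 1 and 6, with means of 5.75 to 5.96 against 5.05 to 5.38 on the other 7 arrays. In such bulk samples fewer cells of a type and less RNA per cell cannot be told apart.

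Of the 43 receptors, 37 read above the mean of the array's own antigenomic background probes on all 11 arrays. The neural receptor gene Nr2e1 and Hnf4g, a relative of Hnf4a, read below it on every array. Nr0b1, a corepressor of the adrenal and gonad, was above it on 1 array, Nr1h5 on 2, the neural and retinal Rorb on 5 and the pluripotency-linked Esrrb on 9, so no fold is given for these 6. By the stricter 95th percentile of the same probes, which include GC-rich ones, 10 receptors were above background on all arrays. They were Nr1d1, Nr4a3, Nr2f2, Nr1d2, Rarb, Rarg, Rara, Nr5a2, Vdr and Thra.

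**Figure D1:**
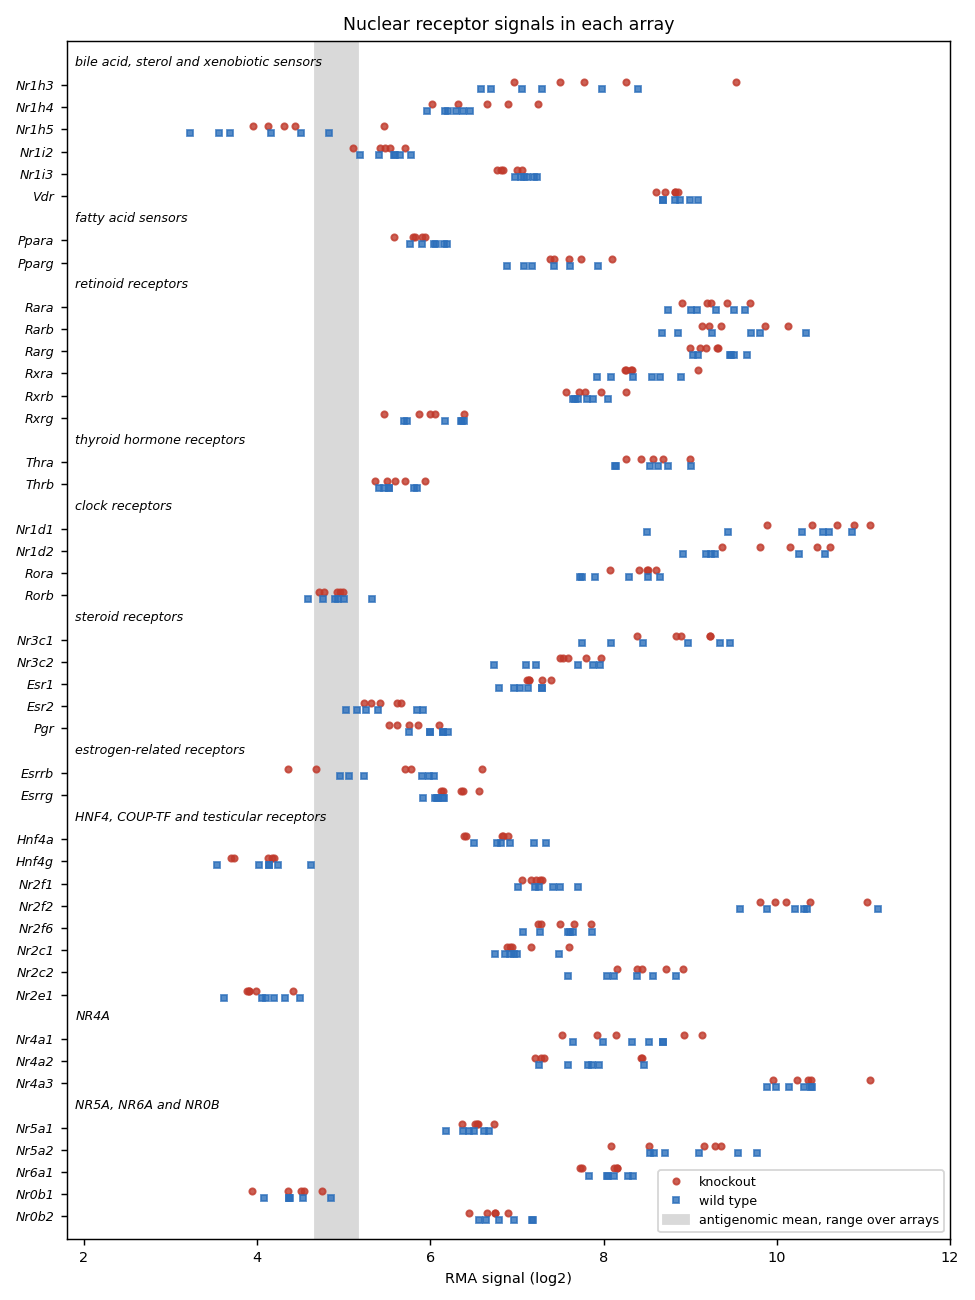
Log2 signal (x axis) of each nuclear receptor (rows, grouped by role) on each array, with knockout as circles above wild type as squares. The grey band is the range over arrays of the antigenomic mean, 4.67 to 5.17, and for every receptor the circles and squares overlap.

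The genotype comparison asks which receptors differ with endothelial Atg5 status early in high fat feeding. Of the 43 receptors 0 met the study's rule, which 1.03% of all 22206 clusters met (0.671% higher in knockout and 0.356% lower). In the limma test with Benjamini-Hochberg adjustment over all clusters 0 receptors passed an adjusted p of 0.05, as did 0% of all clusters. Without adjustment, 2 of 43 had p up to 0.05 (Esrrg and Nr1i3, 4.65%), against 6.39% of all clusters. For no receptor were the groups without overlap, a pattern shown by 0.473% of all clusters. The median difference was 0.02 over the receptors, where 24 lay above 0 and 19 below, and -0.02 over all clusters, of which 46% lay above 0. The median standard error was 0.17 for the receptors and 0.14 for all clusters. For 25 receptors the 95% interval lay wholly within 1.5-fold either way, and the same held for 75.8% of all clusters. For the other receptors the interval reached past 1.5-fold on at least one side, so a change of that size was not excluded there. The 25 include Hnf4g, Nr2e1, Nr0b1 and Rorb, which read near or below background, so a narrow interval does not exclude a change for them. Others of the 25, such as Pgr, Ppara and Thrb, were under the stricter background on all arrays, which limits their intervals too.

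**Figure D2:**
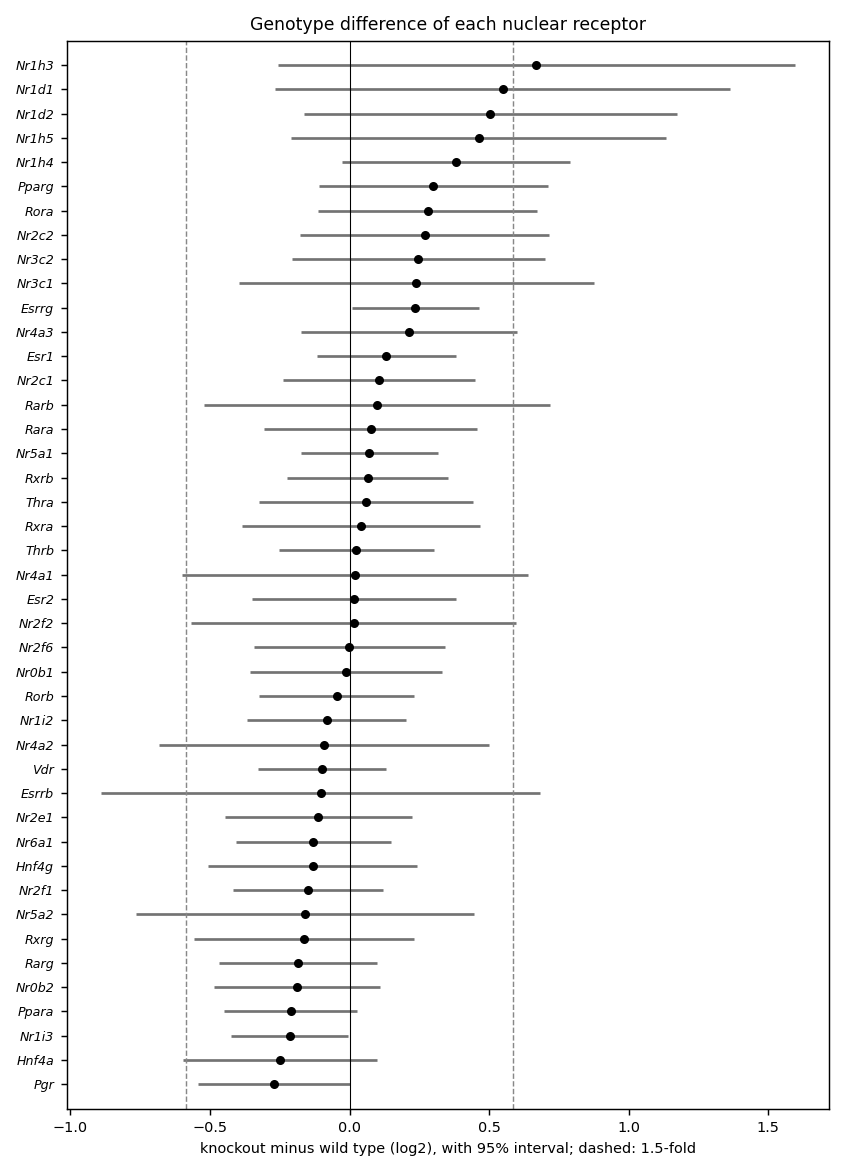
Knockout minus wild type difference (x axis, log2) of each nuclear receptor with its 95% limma interval, from the highest difference (Nr1h3, 0.67) at the top to the lowest (Pgr, -0.27) at the bottom. Dashed lines mark 1.5-fold, and only Nr1h3 lies beyond one of them.

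Among the sterol, bile acid and xenobiotic sensors, Nr1h3 had the greatest difference of the 43 receptors and the widest range over arrays. Nr1h3 encodes LXR alpha, which senses oxysterols and turns on cholesterol export. It read 8.26, 9.53, 6.96, 7.5 and 7.77 in knockout arrays 1 to 5, against a lowest of 6.58, a median of 7.175 and a highest of 8.40 in wild type arrays. Knockout arrays 2 and 1 and wild type array 5 were the 3 highest, and the groups overlapped. The difference was 0.67 (SE 0.43, 1.59-fold), with an exact permutation p = 0.229 and a limma adjusted p of 0.78. Without knockout array 2 it was 0.29, and without knockout array 3 it was 0.93 and met the study's rule.

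The arrays with much Nr1h3 were those with much Kupffer cell signal. Knockout array 2 also had the highest mean of Kupffer cell and macrophage markers (10.15), and among wild type arrays the highest mean was that of array 5 (8.44). Over the 11 arrays Nr1h3 followed that mean with a Pearson r = 0.896 (permutation p = 0.00065, adjusted p = 0.028 over 172 relations) and a Spearman rho = 0.791 (permutation p = 0.0056, adjusted p = 0.080). Without knockout arrays 2 and 5, the farthest from the median, r was 0.841. It was 0.930 after the genotype means were subtracted. Within the 7 arrays of lower intron signal it was 0.898 (exact permutation p = 0.0093, adjusted p = 0.53). With the Kupffer cell mean in the model, the Nr1h3 difference turned to -0.66 and met the rule as lower. With the hepatocyte mean Nr1h3 gave a lower r (0.318, permutation p = 0.34, adjusted p = 0.61), though it was 0.812 after the genotype means were subtracted. With the hepatocyte mean in the model the Nr1h3 difference was 1.70. The mean of 10 stellate cell markers gave r = 0.814 (permutation p = 0.0021, adjusted p = 0.065) and rho = 0.791 (permutation p = 0.0054, adjusted p = 0.080). That r was 0.779 after the genotype means were subtracted, so the relation of Nr1h3 was not particular to Kupffer cell markers.

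Nr1h4 encodes the bile acid receptor FXR. Its values were 6.02, 7.24, 6.32, 6.89 and 6.65 in knockout arrays, against 5.96, 6.245 and 6.46 as the lowest, median and highest of wild type arrays. Knockout arrays 2, 4 and 5 lay above every wild type array and knockout array 1 near the bottom of the wild type range. The difference of 0.38 (SE 0.19) had an exact permutation p = 0.104 and a limma adjusted p of 0.76, and leaving out knockout array 2 gave 0.23 and leaving out knockout array 1 gave 0.53. The Nr1h4 signal was under the stricter background on all arrays. Over 11 arrays Nr1h4 gave r = 0.707 with the Kupffer cell mean (permutation p = 0.016, adjusted p = 0.16), and 0.176 without knockout arrays 2 and 5. With the stellate cell mean r was 0.689 (permutation p = 0.018, adjusted p = 0.16), and with the hepatocyte mean -0.149 (permutation p = 0.66, adjusted p = 0.82). Nr1h5, a relative that binds sterols in mice, reached background only in knockout array 2 (5.46) and wild type array 1 (4.83).

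Nr1i3 encodes the xenobiotic sensor CAR and was, with Esrrg, a receptor of limma p under 0.05 before adjustment. It read 6.77, 7.06, 6.84, 6.81 and 7 in knockout arrays, against a lowest of 6.98, a median of 7.10 and a highest of 7.23 in wild type arrays. All 5 knockout arrays lay below the wild type mean, yet knockout arrays 2 and 5 lay within the wild type range. The difference was -0.21 (SE 0.10, 1.16-fold lower), with an exact permutation p = 0.019 and a limma adjusted p of 0.76. Hepatocyte markers were lower on average in the knockout group, though not in knockout array 2 (9.57), and over 11 arrays Nr1i3 went with their mean at r = 0.807 (permutation p = 0.0026, adjusted p = 0.065) and rho = 0.836 (permutation p = 0.0021, adjusted p = 0.051). Without wild type array 5 and knockout array 4, r was 0.705, and after the genotype means were subtracted it was 0.650. With the Kupffer cell mean, r was -0.111 before that subtraction and 0.779 after it. Within the 7 arrays of lower intron signal the r with hepatocyte markers was 0.729 (exact permutation p = 0.058, adjusted p = 0.70). The Nr1i3 signal was under the stricter background on all arrays. The sister receptor PXR (Nr1i2) differed by -0.08 (SE 0.13). Vdr, the vitamin D receptor that nonparenchymal liver cells carry, read 8.60 to 8.86 in knockout and 8.69 to 9.09 in wild type arrays, with a difference of -0.10 (SE 0.11) and an interval within 1.5-fold.

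The fatty acid sensors pointed opposite ways, with neither past a threshold. Ppara, which drives hepatic fatty acid oxidation, averaged 5.81 ± 0.14 in knockout and 6.02 ± 0.16 in wild type arrays (SD, n = 5 and 6). Its difference of -0.21 (SE 0.11) had an exact permutation p = 0.056 and 5 of 5 knockout arrays lay under the wild type average. Pparg, the adipogenic member that macrophages and endothelium also use, read 8.10, 7.43, 7.60, 7.74 and 7.38 in knockout arrays, against 6.88, 7.30 and 7.93 as the lowest, median and highest of wild type arrays. Every knockout array exceeded the mean of the wild type arrays, but knockout array 1 alone exceeded the highest wild type array (difference 0.30, SE 0.19, exact permutation p = 0.188).

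Of the retinoic acid receptors, Rara, Rarb and Rarg were all above the stricter background on every array. Rarb, itself a target of retinoic acid, varied most, with 9.36, 9.86, 10.13, 9.21 and 9.13 in knockout arrays, against a lowest of 8.67, a median of 9.475 and a highest of 10.34 in wild type arrays. That spread was larger than its difference of 0.10 (SE 0.29). Rara differed by 0.08 (SE 0.18). Rarg read 9 to 9.32 in knockout arrays and 9.03 to 9.66 in wild type arrays, a difference of -0.19 (SE 0.13, exact permutation p = 0.177) with 5 of 5 knockout arrays below the wild type mean. Among the RXR genes, the common heterodimer partners, Rxra differed by 0.04 (SE 0.20), Rxrb by 0.06 (SE 0.13) and Rxrg by -0.16 (SE 0.18). Rxra was 9.09 in knockout array 2 and 8.25 to 8.33 in the other knockout arrays. The intervals of all 3 RXR genes, of Rara and of Rarg lay within 1.5-fold.

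The thyroid hormone receptors showed no genotype difference beyond the spread. Thra averaged 8.59 ± 0.28 in knockout and 8.53 ± 0.35 in wild type arrays, and Thrb 5.62 ± 0.22 and 5.59 ± 0.18 (SD, n = 5 and 6). Thrb, the form that dominates in hepatocytes, followed the mean of 10 stellate cell markers over the 11 arrays (r = 0.863, permutation p = 0.00051, adjusted p = 0.028, and rho = 0.879, permutation p = 0.00067, adjusted p = 0.029). Without knockout array 2 and wild type array 1, r was 0.774, and within the 7 arrays of lower intron signal it was 0.878 (exact permutation p = 0.0087, adjusted p = 0.53). The whole range of Thrb was 0.58 on the log2 scale, from 5.36 in knockout array 3 to 5.94 in knockout array 2.

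**Figure D3:**
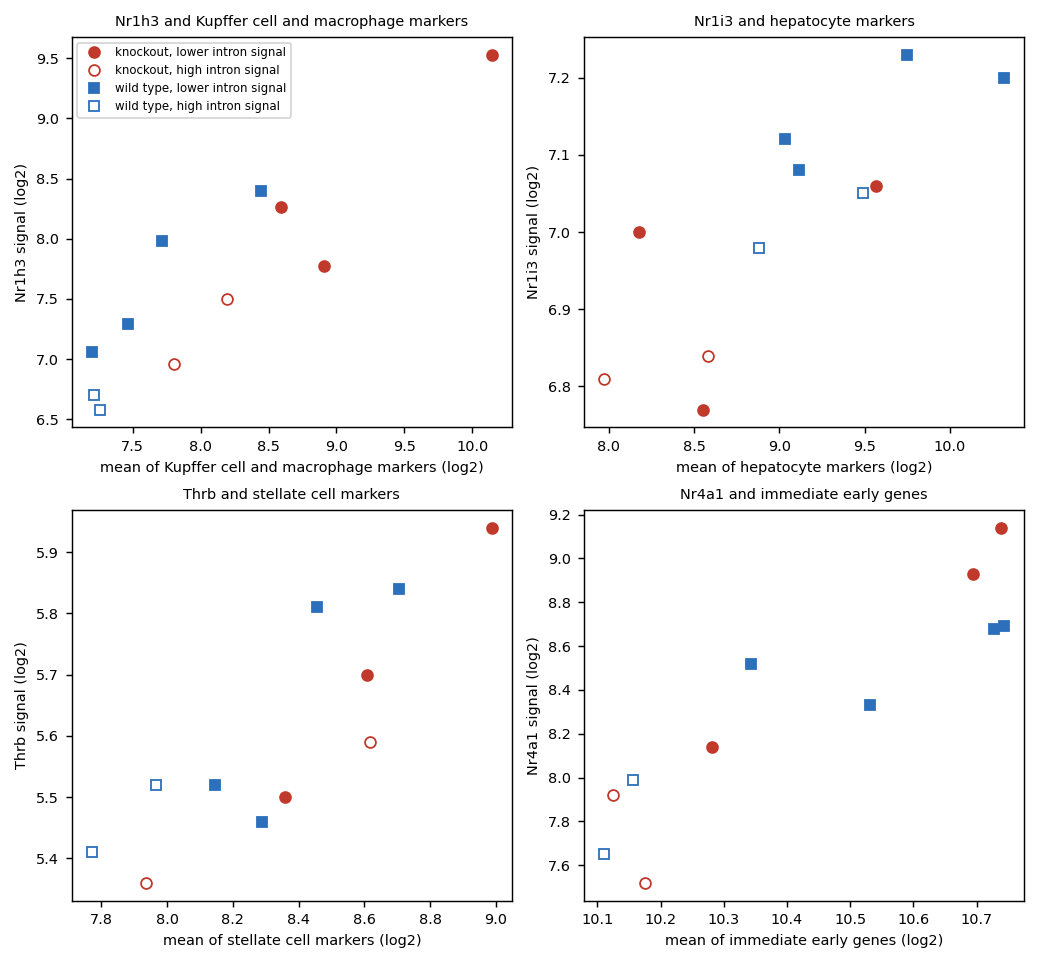
Each panel plots a receptor's log2 signal (y axis) against the mean log2 signal of a gene list (x axis) on the 11 arrays, with knockout as circles and wild type as squares. Open symbols are the 4 arrays of high intron signal. Nr1h3 is highest where Kupffer cell markers are highest (9.53 at 10.15, knockout array 2).

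Among the receptors of the circadian clock, both REV-ERB genes had higher means in knockout arrays without passing any threshold. REV-ERB alpha and beta (Nr1d1 and Nr1d2) repress Arntl, which encodes BMAL1, and the ROR receptors activate it through the same elements. Nr1d1 read 9.88, 10.89, 10.41, 10.69 and 11.07 in knockout arrays, against a lowest of 8.5, a median of 10.41 and a highest of 10.87 in wild type arrays. Wild type arrays 3 (8.5) and 1 (9.44) were the lowest of the 11. The difference of 0.55 (SE 0.38) had an exact permutation p = 0.266 and was 0.24 without wild type array 3.

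Nr1d2 gave 9.8, 9.37, 10.46, 10.61 and 10.15 in knockout arrays, against 8.92, 9.265 and 10.55 as the lowest, median and highest of wild type arrays. Its difference was 0.50 (SE 0.31, exact permutation p = 0.186). The 4 highest arrays were those of high intron signal, 2 of each genotype. Within these 4 the Nr1d2 difference was 0.13. Among the other 7, a split chosen after seeing the data, the knockout arrays read 9.37 to 10.15 and the wild type arrays 8.92 to 9.29. The Nr1d2 difference of 0.62 there met the study's rule (limma adjusted p = 0.67), as did 1.62% of all clusters in those 7 arrays. It also met the rule without knockout array 2 (0.68) or wild type array 6 (0.70), and was 0.37 without knockout array 4.

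Rora differed by 0.28 (SE 0.18, exact permutation p = 0.190), with 8.42 ± 0.21 in knockout and 8.14 ± 0.40 in wild type arrays (SD, n = 5 and 6). Its other clusters differed by 0.28 (SE 0.25) and -0.11 (SE 0.20), so the clusters of this gene did not all point one way. Of 15 clock genes, 12 lay above 0 with a median of 0.11, and 0 met the rule. Ciart, a repressor of the clock, differed by 0.30 (SE 0.13, exact permutation p = 0.032), and the output factor Dbp by 0.33 (SE 0.22, exact permutation p = 0.221). Arntl read 8.76 to 9.38 in knockout arrays and 8.54 to 9.53 in wild type arrays. Across the 11 arrays none of 30 relations between clock genes and Nr1d1 or Nr1d2 passed adjustment. Nr1d1 and Ciart gave r = 0.730 (permutation p = 0.013, adjusted p = 0.081) and rho = 0.717 (permutation p = 0.016, adjusted p = 0.11). Without wild type arrays 3 and 1, r was 0.374, so that relation rests on those arrays. The hour of sampling was not given in the sources used here.

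**Figure D4:**
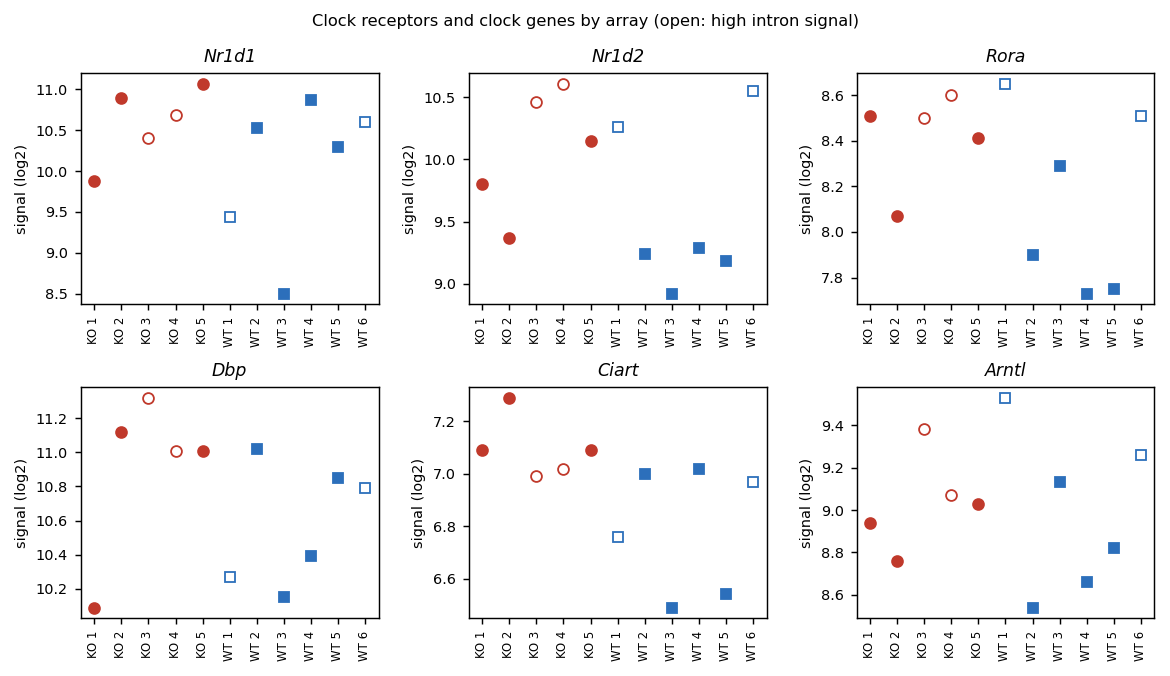
Log2 signal (y axis) on each array (x axis, KO for knockout and WT for wild type) of the clock receptors Nr1d1, Nr1d2 and Rora and of the clock genes Dbp, Ciart and Arntl. Open symbols are the 4 arrays of high intron signal, where Nr1d2 is highest (10.26 to 10.61), while Nr1d1 is lowest in wild type array 3.

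The steroid receptors gave no call. The glucocorticoid receptor gene Nr3c1 read 8.83, 8.39, 9.23, 9.23 and 8.89 in knockout arrays, against 7.75, 8.71 and 9.46 as the lowest, median and highest of wild type arrays (difference 0.24, SE 0.29, exact permutation p = 0.50). The mineralocorticoid receptor gene Nr3c2 differed by 0.25 (SE 0.21, exact permutation p = 0.329), with 5 of 5 knockout arrays over the wild type average. Esr1, the main estrogen receptor of liver, differed by 0.13 (SE 0.12), and Esr2 by 0.02 (SE 0.17). The progesterone receptor gene Pgr had the lowest difference of the 43, at -0.27 (SE 0.13, exact permutation p = 0.052). It averaged 5.77 ± 0.23 in knockout and 6.04 ± 0.17 in wild type arrays (SD, n = 5 and 6), under the stricter background on all arrays.

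Of the estrogen-related receptors, which bind DNA without a known natural hormone and act on mitochondrial genes, Esrrg was the receptor of smallest limma p. It read 6.56, 6.35, 6.14, 6.12 and 6.37 in knockout arrays, against a lowest of 5.91, a median of 6.085 and a highest of 6.16 in wild type arrays. Knockout arrays 1, 2 and 5 exceeded all wild type arrays, and knockout arrays 3 and 4, both of high intron signal, did not. The difference of 0.24 (SE 0.11, 1.18-fold) had an exact permutation p = 0.015 and a limma adjusted p of 0.76, and lay between 0.17 and 0.28 with any 1 array left out. Within the 4 arrays of high intron signal it was 0.015, and among the other 7 it was 0.38. With the Kupffer cell mean in the model it was 0.14. Over 11 arrays Esrrg and that mean gave r = 0.693 (permutation p = 0.021, adjusted p = 0.17) and rho = 0.806 (permutation p = 0.0041, adjusted p = 0.077), and without knockout arrays 2 and 5 r was 0.670. Both were higher on average in the knockout group, and after the genotype means were subtracted r was 0.424. The Esrrg signal was under the stricter background on all arrays.

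Hnf4a, a master regulator of hepatocyte genes, had 5 of 5 knockout arrays under the wild type average, with overlapping groups. Its values were 6.39, 6.84, 6.82, 6.41 and 6.90 in knockout arrays, against 6.5, 6.865 and 7.33 as the lowest, median and highest of wild type arrays (difference -0.25, SE 0.16, exact permutation p = 0.162). The corepressor gene Nr0b2 (SHP), a target of FXR, differed by -0.19 (SE 0.14). Nr5a2, a sterol and bile acid regulator of liver, averaged 8.88 ± 0.56 in knockout and 9.04 ± 0.52 in wild type arrays (SD, n = 5 and 6), a difference of -0.16 (SE 0.28). Nr5a1, the steroidogenic factor, differed by 0.07 (SE 0.11), and Nr6a1, a germ cell factor, by -0.13 (SE 0.13).

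Nr2f2, the venous and lymphatic COUP-TFII, read 10.38, 11.04, 10.11, 9.98 and 9.81 in knockout arrays, against 9.57, 10.26 and 11.17 as the lowest, median and highest of wild type arrays. Wild type array 3 and knockout array 2 were the highest, and the difference was 0.02 (SE 0.27). The related Nr2f1 and Nr2f6 differed by -0.15 (SE 0.12) and -0.00067 (SE 0.16), both with intervals within 1.5-fold. The testicular receptor genes Nr2c1 and Nr2c2 differed by 0.11 (SE 0.16) and 0.27 (SE 0.21).

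The NR4A receptors are immediate early genes, induced by signals that act through cyclic AMP response elements. Their promoters are shown with the core TGACG of such an element, counted on both strands. Each of the 3 held 4 copies, and no other of the 39 receptors with a tabulated promoter held 4 or more. At least 1 copy was in a promoter of 13 of the 39 receptors and in 20.8% of all 32851 tabulated promoters, and 4 or more were in 0.231% of them. Receptors were counted by gene, over every tabulated promoter of the gene, and the shares are of single promoters, so the 2 are not like measures. The motif was chosen after results for these genes had been seen, and the cutoff of 4 equals the count in each of the 3. Passing it is therefore a description and not a test. The sequences run from 250 bases before to 50 after the transcript start in RefSeq, build GRCm38.p6, and capitals mark TGACG or its reverse complement CGTCA. A match is a description of letters and not of a bound site.
Nr4a1 (chr15:101266596-101266895, plus strand): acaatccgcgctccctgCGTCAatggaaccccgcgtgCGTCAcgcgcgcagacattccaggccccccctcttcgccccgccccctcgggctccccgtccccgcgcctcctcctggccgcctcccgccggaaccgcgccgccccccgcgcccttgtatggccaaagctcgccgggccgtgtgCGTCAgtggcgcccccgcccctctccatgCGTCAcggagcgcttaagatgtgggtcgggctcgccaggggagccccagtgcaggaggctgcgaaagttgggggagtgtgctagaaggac
Nr4a2 (chr2:57123954-57124253, minus strand): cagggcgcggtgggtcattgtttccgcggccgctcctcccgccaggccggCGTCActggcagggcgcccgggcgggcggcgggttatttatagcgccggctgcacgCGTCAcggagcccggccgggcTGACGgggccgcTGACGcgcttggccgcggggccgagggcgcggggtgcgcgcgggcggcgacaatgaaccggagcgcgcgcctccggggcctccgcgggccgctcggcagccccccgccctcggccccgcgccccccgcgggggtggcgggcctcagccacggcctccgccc
Nr4a3 (chr4:48045055-48045354, plus strand): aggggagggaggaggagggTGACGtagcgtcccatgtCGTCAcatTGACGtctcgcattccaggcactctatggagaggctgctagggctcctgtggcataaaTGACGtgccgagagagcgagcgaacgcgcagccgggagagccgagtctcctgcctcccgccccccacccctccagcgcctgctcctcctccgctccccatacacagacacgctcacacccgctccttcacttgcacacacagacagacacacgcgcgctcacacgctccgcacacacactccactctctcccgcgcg
All 4 matches of Nr4a1 are on the reverse strand, Nr4a2 has 2 on each strand, and Nr4a3 has 3 forward and 1 reverse.

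None of the 3 differed by genotype beyond the spread. Nr4a1 read 8.93, 9.14, 7.52, 7.92 and 8.14 in knockout arrays, against 7.65, 8.425 and 8.69 as the lowest, median and highest of wild type arrays. Knockout arrays 1 and 2 were the 2 highest and knockout array 3 the lowest of all 11, for a difference of 0.02 (SE 0.29). Nr4a2 gave 8.44 and 8.43 in knockout arrays 1 and 2 and 7.21 to 7.31 in knockout arrays 3 to 5, against 7.25 to 8.47 in wild type arrays (difference -0.09, SE 0.27). Nr4a3 read 11.08 in knockout array 1 and 9.95 to 10.39 in the other knockout arrays, against 9.89 to 10.41 in wild type arrays (difference 0.21, SE 0.18, exact permutation p = 0.333). The 15 other immediate early genes, such as Fos and Egr1, gave 0 calls and a median of -0.03.

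The 4 arrays of high intron signal were also the 4 lowest in the mean of the immediate early genes, at 10.11 to 10.18 against 10.28 to 10.74, so relations to that mean are given within the other 7 arrays. There Nr4a1 gave r = 0.789 (exact permutation p = 0.044) and rho = 0.786 (exact permutation p = 0.048). Nr6a1 went the other way, with r = -0.780 (exact permutation p = 0.048) and rho = -0.679 (exact permutation p = 0.11). With adjustment over 172 relations these Pearson values came to 0.70, and none of the 172 passed within the 7 arrays.

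Of the 43 receptors, 7 separated the 4 arrays of high intron signal from the other 7 without overlap, a share of 16.3% against 14.1% of all clusters. Nr1d2, Nr3c1 and Nr2c2 were higher in the 4 arrays, by 1.05, 0.84 and 0.60 on the log2 scale (6.89% of all clusters were higher without overlap). Nr4a1, Rxrg and Thra had differences of -0.86, -0.56 and -0.50 (7.17% of all clusters were lower without overlap). Esrrb was lower too, but as it was under the background mean in knockout arrays 3 and 4, no size is given. Nr3c1, for example, read 9.23 to 9.46 in the 4 arrays and 7.75 to 8.97 in the other 7. As both genotypes have 2 such arrays, the split does not coincide with genotype, and its origin was not tested.

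**Figure D5:**
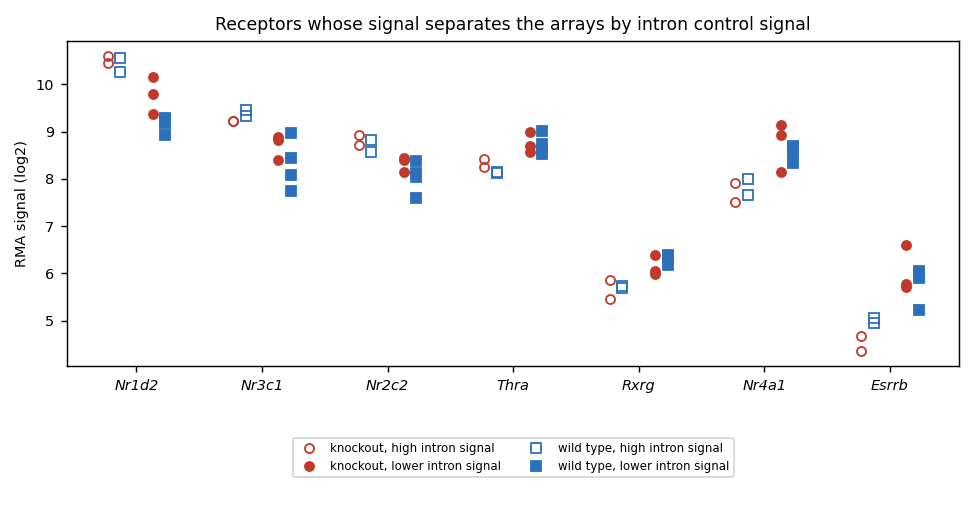
Log2 signal (y axis) of the 7 receptors (x axis) that separate the 4 arrays of high intron signal (open symbols, left of each pair) from the other 7 (filled, right), with knockout as circles and wild type as squares. Nr1d2 reads 10.26 to 10.61 on the left and 8.92 to 10.15 on the right.

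Partners and textbook target genes were read from lists chosen with earlier results of these data known. Of 15 measured coregulators 0 met the study's rule, 11 lay above 0 and the median was 0.10, with the corepressor subunit Tbl1xr1 at 0.36 (SE 0.22) and the coactivator Ncoa1 at 0.24 (SE 0.16). Of 9 LXR targets 0 met it (median 0.03). The lipid transfer protein gene Pltp differed by 0.68 (SE 0.36, exact permutation p = 0.147) and read highest, at 10.93, in knockout array 2. The cholesterol exporter Abca1 differed by 0.40 (SE 0.23). Without knockout array 3 or wild type array 5, 1 LXR target met the rule.

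Of 18 PPAR targets 0 met the rule, 12 lay below 0 and the median was -0.07. Creb3l3, a hepatocyte factor of lipid metabolism, read 7.41, 7.61, 7.38, 7.45 and 7.5 in knockout arrays, against 7.66 to 7.99 in wild type arrays. Its groups did not overlap, as in 0.473% of all clusters. The difference of -0.35 (SE 0.10, exact permutation p = 0.0043, limma adjusted p = 0.76) was under 1.5-fold. The Creb3l3 signal was under the stricter background on all arrays. Hepatocyte markers were also lower on average in the knockout group, and their part in this difference was not tested. The water and glycerol channel Aqp7 (-0.23, SE 0.12) and the acyltransferase Mogat1 (-0.25, SE 0.13) came next by p. Without knockout array 2, 1 PPAR target met the rule.

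All 9 FXR targets lay below 0 (median -0.31), whereas 46% of all clusters lay above 0. Of the 9, 7 were above the background mean on all arrays. Slc51b, whose difference was close to 0, was above it on only 4 arrays, so its sign carries little. By the rule 2 of the 9 fell, against 0.356% of all clusters. They were Slc27a5, a bile acid ligase (-0.71, SE 0.30, exact permutation p = 0.069), and Slc10a1, the bile acid uptake carrier (-0.76, SE 0.35, exact permutation p = 0.100). Slc27a5 read close to the background mean in some knockout arrays (4.85 against 4.73 in knockout array 4), which limits its size. The list holds both induced and repressed targets. Cyp8b1, a repressed one, read 4.90 to 5.36 in knockout arrays and 5.26 to 5.69 in wild type arrays (exact permutation p = 0.0087), with knockout arrays 1 and 5 under the background mean, so no size is given. The induced bile salt pump Abcb11 differed by -0.32 (SE 0.15). Of 12 glucocorticoid targets 2 fell by the rule, against the same 0.356% of all clusters. These were the liver enzymes Tat (-1.26, SE 0.44, exact permutation p = 0.054) and Pck1 (-0.62, SE 0.29, exact permutation p = 0.097), while Fkbp5, which many cell types induce, differed by 0.22 (SE 0.28). Hepatocyte markers, Tat among them, were lower on average in the knockout group (14 of 22 called, range of the mean 7.97 to 9.57 in knockout and 8.88 to 10.32 in wild type arrays), and their part in these target genes was not tested. The counts of 2 are not stable to the choice of arrays. For FXR targets the count was 0 without any one of knockout arrays 1, 3, 4 and 5 or wild type arrays 1, 4 and 5, and 1 without wild type array 3. For glucocorticoid targets it was 1 without any one of those first 7 arrays. Of 7 retinoic acid targets, 6 CAR and PXR targets and 5 thyroid hormone targets, 0 met the rule, with medians of -0.02, -0.11 and -0.21. Lrat, which encodes a retinol-esterifying enzyme and is also a stellate cell marker, differed by 0.52 (SE 0.28). The CAR and PXR target Cyp3a11, also a hepatocyte marker, differed by -0.91 (SE 0.51) and the deiodinase Dio1 by -0.21 (SE 0.13). The count became 1 for CAR and PXR targets without knockout array 2 or wild type array 3, and 1 for retinoic acid targets without wild type array 5.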

How the data were processed

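Total RNA of 11 LSEC samples was measured on Mouse Clariom S arrays from 100 ng each, per the labels' protocols. The authors deposited log2 values made with Affymetrix Expression Console and RMA, per the submitters' processing notes (no version is given there). RMA corrects background, equalises array distributions and summarises probes, so a shift shared by most genes is removed. The log2 scale was read from the range, 2.15 to 13.79. Groups and replicate numbers came from the sample titles. These call every array a biological replicate without naming animals, so the p-values reflect only how these arrays vary, which may be technical.

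From the file, 22206 transcript clusters were tested and 6640 control rows left out. In the platform annotation 19572 clusters had 1 symbol, 2634 had none and 0 had more than 1, and the brightest cluster stood for a symbol, which matters for Rora and Rorb. Knockout minus wild type differences came from lmFit and eBayes of limma 3.58.1 under R 4.3.3, with genotype as the only term, with Benjamini-Hochberg adjustment over all clusters. The study's rule names no test, so the same p was used. Exact permutation tests were two-sided over 462 splits (smallest p 0.0022), and relations across arrays used 100000 permutations, or all 5040 pairings of 7 arrays. Background was the mean of 23 antigenomic rows of each array. Tests were tried on simulated arrays with known changes. The members and gene lists were chosen with earlier results of these data known. The naming rule took the 15 receptors of smallest p, the 10 of highest signal and their close relatives, and of each target list up to 4 genes of smallest p, with Arntl and Abca1. Alternatives left out each array, or changed the normalization, variance model, filters, covariates, block or thresholds. Those on the intron control rows were added after seeing the data. Scanner files and scan times were not used here.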

Additional observations from a re-analysis of the deposited data

Results flagged for a closer look

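In 86 groups of values (43 receptors in knockout and in wild type arrays), 3 held an array far from the rest by Dixon's test, which marks about 1 in 20 groups by chance. Rxra in knockout array 2 read 9.09, against 8.25 to 8.33 in the other knockout arrays. Nr2e1 in knockout array 4 read 4.41, against 3.88 to 3.98, all below the antigenomic background. Nr2c1 in wild type array 3 read 7.48, against 6.74 to 7 in the other wild type arrays.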

How the results depend on the processing

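No receptor met the study's rule with repeated quantile normalization, median centring, another variance model, a filter on dim clusters, all clusters of a symbol averaged, a lower fold threshold, a p of 0.01 or a plain two-sample test. Elsewhere the count was 7 with the Kupffer cell mean as a covariate (4 higher, 3 lower, 16.3% of receptors against 8% of all clusters under that setting, a difference that was not tested), 2 with the replicate block (Nr1d1 and Nr1d2, against 1.13% of clusters), 1 with array weights (Nr1d2, 1.1%), 1 with the hepatocyte mean (Nr1h3, 2.9%) and 1 with the intron control mean (Nr1h3, 1.26%). It was 2 without the 4 arrays of high intron signal (Nr1d2 and the mostly dim Nr1h5, 1.62%), 1 within them (Nr1h3, 1.28%), and 0 to 1 with single arrays left out (0.77 to 1.41% of clusters, Nr1d2 without knockout array 2 or wild type array 6, Nr1h3 without knockout array 3). The intron settings were chosen after seeing the data. With the Kupffer cell mean, Nr1h3 turned to -0.66 and Nr4a1 to -0.66. The Kupffer cell and hepatocyte means themselves differ between genotypes (exact permutation p = 0.0152 and 0.0390), and the cause of these shifts was not tested. No receptor passed an adjusted p under any setting. Of 43 receptors 34 were never called over 26 settings and 12 kept their sign throughout. With single arrays left out, called targets numbered 0 to 2 for FXR, 1 to 2 for glucocorticoid, and 0 to 1 each for PPAR, LXR, CAR and PXR, and retinoic acid. Above background on all arrays were 37 receptors by the mean and 10 by the 95th percentile of antigenomic rows, so depth of signal limits the dim receptors. Same-numbered arrays did not deviate together (r from -0.32 to 0.39 over 5 pairs), so the replicate block is given only here.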
